A study of Arabidopsis thaliana with 12 samples.

Results

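The genes described here are those that the deposited annotation places in the cytosolic large or small ribosomal subunit. They were chosen by 1 rule: a gene belonged if its annotation column held the term for the cytosolic large subunit or that for the cytosolic small subunit and neither of 2 terms, for rRNA modification and for small nucleolar ribonucleoprotein complexes. The rule found 259 of 27715 genes, 144 with the large-subunit term and 115 with the small-subunit term, and the last 2 terms removed 0 genes. It read the annotation alone and no measured value. The name "cytosolic ribosomal protein genes" fitted most members but not all. By the orthology terms and descriptions in the table, 228 of the 259 code for proteins of the cytosolic ribosome, RACK1 included, and fall into 79 families, 46 of the large subunit and 33 of the small one. Another 22 code for bacterial-type ribosomal proteins of plastids or mitochondria, 4 are ribosomal RNA genes and 5 code for other proteins. The 228 are called the cytosolic genes below, by annotation alone. Among them AT2G19720 and AT4G29430, placed with S15a, share 86.2% identity in coding sequence with each other. With the other S15a genes they share 57.9% to 60.0%, and whether they belong to the cytosolic ribosome was not tested.

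A cytosolic ribosome joins a large subunit, which forms peptide bonds, to a small subunit, which reads the messenger RNA. Each protein is normally present once per ribosome, apart from the acidic stalk proteins, and plants code for almost every one of them with several near-identical genes called paralogs. The genes are known to be most active in growing and dividing tissue, such as young flower buds, and many carry the telo box and site II motifs in their promoters.

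RNA was measured in Arabidopsis thaliana flowers of stages 1 to 12, which run from the first bud to the stage before opening. The 4 groups, with 3 libraries of 9 flowers each, were the XBAT31 mutant at 38 °C, the XBAT31 mutant at 22 °C, the wild type at 38 °C and the wild type at 22 °C, with 3 hours at the stated temperature. XBAT31 codes for a RING-type E3 ubiquitin ligase with ankyrin repeats that is known from work on growth at warm temperature. The sources used here do not name the allele or the background accession. Mutant libraries still held XBAT31 transcript, at 54.2, 47.5 and 49.4 FPKM at 38 °C, against 109, 110.1 and 107 FPKM in the wild type at 38 °C, and lower than in the wild type at both temperatures by edgeR (-1.15, adjusted p = 6.98e-05 at 38 °C and -0.93, adjusted p = 8.61e-04 at 22 °C). Nothing in the labels says whether the replicates came from separate plants or days, so every p-value is set by how much these libraries scatter, which may be technical.

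Levels are in FPKM, fragments scaled to transcript length and library size, given per library in the order of the replicate numbers. Changes are log2 fold changes with standard errors (SE) from edgeR's quasi-likelihood test on the deposited counts, where 1 is a doubling, with p-values adjusted by the Benjamini-Hochberg method over all 23585 genes tested in a comparison. A change passed at an adjusted p below 0.05, and "rose" and "fell" are used of such changes only. In whole flowers, fewer cells of a type and less RNA per cell cannot be told apart. Library totals ran from 44983198 to 63088433 counts. Of the members, 252 were tested, 222 of them cytosolic, and 7 had counts too low to test. All 11 genes of a floral organ identity list were detected in each group, with summed levels between 631 and 743 FPKM over the 12 libraries.

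The cytosolic genes were among the most active in these flowers. Their levels, as the mean over the 12 libraries, ran from 0.0355 to 1403 FPKM with a median of 323 FPKM and quartiles of 138 and 477 FPKM. Of the 228 genes, 180 had a mean over 100 FPKM, 19 were under 10 FPKM and 11 under 1 FPKM. At the top stood AT4G27090, which codes for L14 (1403 FPKM), AT5G20290 for S8 (1189 FPKM), AT3G60245 for L37a (1047 FPKM) and AT1G02780 for L19 (1045 FPKM). Above them all was AT3G41768, an 18S ribosomal RNA gene (1881 FPKM), whose level in libraries selected for poly(A) tails does not measure the RNA in the cell. At the other end AT1G12960 (L27a), AT1G36240 (L30), AT3G61111 (S27), AT1G33850 (S15) and AT3G10950 (L37a) averaged between 0.0355 and 0.142 FPKM, each listed at 0 in most of the 12 libraries. No member had 0 counts in all 12.

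Summed over paralogs, families spanned a narrower range of levels than single genes. The 79 family sums ran from 210 FPKM for L40, whose genes code for a fusion to ubiquitin, to 1624 FPKM for L14, with quartiles of 779 and 1152 FPKM. One gene gave between 36.7% and 100% of its family's sum, with a median of 56.6%. There were 27 families of 2 genes, 38 of 3, 10 of 4, 2 of 6 and 1 of 7, and 1 family had a single gene. Paralogs of a family can share reads where their sequences match. Of the 253 members with a RefSeq transcript, 199 had no stretch of 100 bases in common with a transcript of another gene on either strand, and 15 shared over 50% of such stretches. The most alike were 3 genes for S2, AT1G58684, AT1G58983 and AT1G59359, whose coding sequences are 100% identical, so that their separate values are uncertain.

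The promoters carried the motifs known for this gene group at high frequency. The window from 250 bases before to 50 bases after each gene's start in the deposited table was searched on both strands for the telo box (AAACCCTA), for site II (TGGGCC or TGGGCT) and for the core of a heat shock element (GAANNTTC). Among the 228 cytosolic genes, 75.9% of windows held a telo box and 82.5% a site II motif, against 8.83% and 21.8% of the windows of all 27438 nuclear genes. Both motifs were present in 66.2% of cytosolic genes, against 2.93% of all nuclear genes, and neither in 7.89%, against 72.3%. A heat shock element core was found in 11.4% of cytosolic genes and in 12.2% of all nuclear genes. With the 250 bases before the start alone, the shares for the telo box were 48.2% and 6.55%. Median levels were 373 FPKM for the cytosolic genes with both motifs (151 genes), 253 FPKM with the telo box alone (22), 318 FPKM with site II alone (37) and 56.0 FPKM with neither (18). With heat in the mutant, 3 rose and 31 fell of the 148 tested genes with both motifs, 0 rose and 7 fell of the 22 with the telo box alone, 1 rose and 13 fell of the 36 with site II alone, and 1 rose and 3 fell of the 16 with neither. Of all genes tested in the mutant, 11.3% rose and 13.6% fell. The same counts in the wild type were 12 and 15 with both motifs, 0 and 6 with the telo box alone, 4 and 8 with site II alone, and 0 and 3 with neither, beside 14.3% and 16.4% of all genes. No difference between these classes was tested. A match is a description of letters and does not show that a factor binds there.

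**Figure D1:**
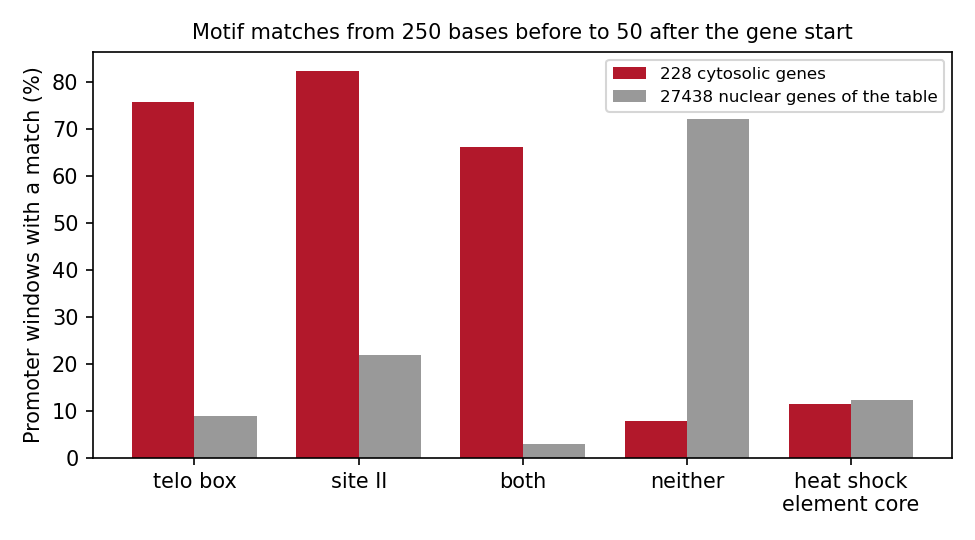
Share of promoter windows (%, y axis, from 0) with a match to each motif, for the 228 cytosolic genes (red, left) and for all 27438 nuclear genes of the table (grey, right). The telo box stands at 75.9% against 8.83% and site II at 82.5% against 21.8%, whereas the heat shock element core stands at 11.4% against 12.2%.

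The 250 bases before the start are shown for 5 genes that recur below, because their heat responses differ: 3 of them fell in the mutant, AT3G22230 passed in neither genotype and AT2G44860 rose in the wild type. They were read from the RefSeq TAIR10.1 genome at the positions in the table, and capitals mark telo box and site II matches on either strand. AT3G22230 and AT4G15000 code for L27, AT5G15200 for the main S9, AT2G44860 for an L24-type protein and AT4G09800 for S18. In these 250 bases AT4G15000 has site II matches and no telo box, and AT4G09800 has no match, its single telo box lying after the start. The other three carry both motifs.
AT3G22230, chr3:7844598-7844847, minus strand: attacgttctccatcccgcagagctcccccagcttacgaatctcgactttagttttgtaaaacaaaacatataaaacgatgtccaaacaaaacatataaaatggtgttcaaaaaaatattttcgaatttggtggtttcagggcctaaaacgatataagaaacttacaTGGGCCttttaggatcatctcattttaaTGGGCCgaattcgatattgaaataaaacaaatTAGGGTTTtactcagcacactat
AT4G15000, chr4:8571583-8571832, plus strand: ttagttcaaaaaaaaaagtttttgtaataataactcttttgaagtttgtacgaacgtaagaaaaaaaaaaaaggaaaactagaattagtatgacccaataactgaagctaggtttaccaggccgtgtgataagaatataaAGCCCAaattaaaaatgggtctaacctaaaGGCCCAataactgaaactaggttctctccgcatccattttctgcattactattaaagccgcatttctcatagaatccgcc
AT5G15200, chr5:4936409-4936658, minus strand: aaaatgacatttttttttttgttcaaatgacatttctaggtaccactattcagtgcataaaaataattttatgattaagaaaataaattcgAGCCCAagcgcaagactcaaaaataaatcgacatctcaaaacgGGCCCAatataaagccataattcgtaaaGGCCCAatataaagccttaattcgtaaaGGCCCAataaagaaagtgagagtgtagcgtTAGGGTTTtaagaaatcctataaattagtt
AT2G44860, chr2:18502563-18502812, minus strand: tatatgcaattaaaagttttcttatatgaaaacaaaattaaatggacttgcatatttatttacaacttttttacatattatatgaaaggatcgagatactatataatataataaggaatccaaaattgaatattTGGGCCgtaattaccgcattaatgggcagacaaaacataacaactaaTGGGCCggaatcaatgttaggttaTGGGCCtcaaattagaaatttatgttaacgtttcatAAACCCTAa
AT4G09800, chr4:6173465-6173714, plus strand: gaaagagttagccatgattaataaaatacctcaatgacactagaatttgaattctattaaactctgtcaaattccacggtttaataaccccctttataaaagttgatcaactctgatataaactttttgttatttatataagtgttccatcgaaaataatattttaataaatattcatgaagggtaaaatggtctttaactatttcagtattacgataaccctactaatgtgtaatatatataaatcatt

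Heat was compared first within each genotype. Most ribosomal protein genes moved little in 3 hours at 38 °C. The log2 fold change was within 0.5 of no change for 210 of the 222 tested cytosolic genes in the mutant and for 205 of them in the wild type. This count was not made for all tested genes, so it does not set the cytosolic genes apart. In the mutant 7 members rose and 55 fell of 252 tested, that is 2.78% and 21.8%, where 11.3% of all tested genes rose and 13.6% fell. In the wild type 23 members rose and 38 fell, 9.13% and 15.1%, where 14.3% of all genes rose and 16.4% fell. The median log2 fold change of the members was -0.17 in the mutant, against -0.00 over all tested genes, and -0.12 in the wild type, against -0.05. Of the members that fell, 23 fell in both genotypes, which is 41.8% of the mutant list and 60.5% of the wild-type list. Of those that rose, 6 rose in both, 85.7% of the mutant list and 26.1% of the wild-type list.

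These counts depended on single libraries and on the scaling. Without mutant replicate 2 at 22 °C, 11 members rose and 11 fell in the mutant, and without mutant replicate 2 or 3 at 38 °C, 19 or 21 fell. In the wild type 12 members fell when either of replicates 1 and 3 was left out at 22 °C or at 38 °C, 24 when replicate 2 at 22 °C was, and 52 when replicate 2 at 38 °C was. Rises there numbered 15 or 12 without replicate 1 or 2 at 22 °C, and 10 without replicate 2 at 38 °C. Without wild-type replicate 3 at 22 °C, 36 fell in the mutant. Scaling on 9 reference genes raised the median of all genes for heat in the mutant to 0.15 and that of the members to -0.01. It gave 26 members higher and 13 lower in the mutant and 42 higher and 17 lower in the wild type. Under the same scaling all 23585 genes moved the same way, with 4568 higher and 1614 lower in the mutant and 4371 higher and 2690 lower in the wild type. With the scaling used elsewhere in the text these counts were 2669 higher and 3206 lower in the mutant, and 3375 higher and 3866 lower in the wild type. Members were then higher in 10.3% and lower in 5.16% in the mutant, against 19.4% and 6.84% of all genes, and higher in 16.7% and lower in 6.75% in the wild type, against 18.5% and 11.4%. Only 4 of the 55 falls in the mutant and 4 of the 38 in the wild type passed under every alternative tried, against 5 of the 7 rises in the mutant and 10 of the 23 in the wild type. Reference-gene scaling and the limma fits on FPKM raised the median of all genes, which favours keeping rises over falls. For heat in the mutant the limma medians were 0.08 with a pseudocount of 1 and 0.11 with 0.1, against -0.00. Kept calls were not counted for all genes, so rises cannot be called firmer than falls. The genes below are given with this in view.

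The share of all FPKM taken by the cytosolic genes showed the same libraries standing apart. It was 11.96%, 10.01% and 11.24% in the mutant at 38 °C, against 10.95%, 13.5% and 11.09% in the mutant at 22 °C. Wild-type shares were 10.38%, 12.03% and 10.14% at 38 °C, against 10.97%, 10.64% and 10.83% at 22 °C. The groups overlapped in both genotypes. Mutant replicate 2 at 22 °C, wild-type replicate 2 at 38 °C and mutant replicate 1 at 38 °C are the 3 libraries left out together below, chosen after the data were seen. They were the highest of their groups for 200, 205 and 180 of the 222 tested cytosolic genes. In the mutant at 38 °C, however, replicate 2, with the lowest share, lay further from replicate 3 than replicate 1 did. Mutant replicate 2 at 22 °C was the highest of the 12 libraries for 144 of the 222 tested cytosolic genes. The same library had the lowest sum over 17 photosynthesis genes, 4047 FPKM against 6460 to 10616 FPKM in the other 11, and the highest over 11 genes of dividing cells, 619 FPKM, with every gene of both lists detected. Sums over 12 genes of maturing pollen were 1272, 4876 and 2259 FPKM in the mutant at 38 °C. At 22 °C the mutant had 3983, 4152 and 4823 FPKM. Wild-type sums were 3319, 2160 and 4117 FPKM at 38 °C, against 3468, 4198 and 7581 FPKM at 22 °C. The library with the highest ribosomal share had the lowest pollen sum in each group except the mutant at 22 °C. Sums over 11 tapetum genes ran from 122 FPKM, in mutant replicate 2 at 22 °C, to 313 FPKM. The part of these differences between libraries in the results was not tested.

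**Figure D2:**
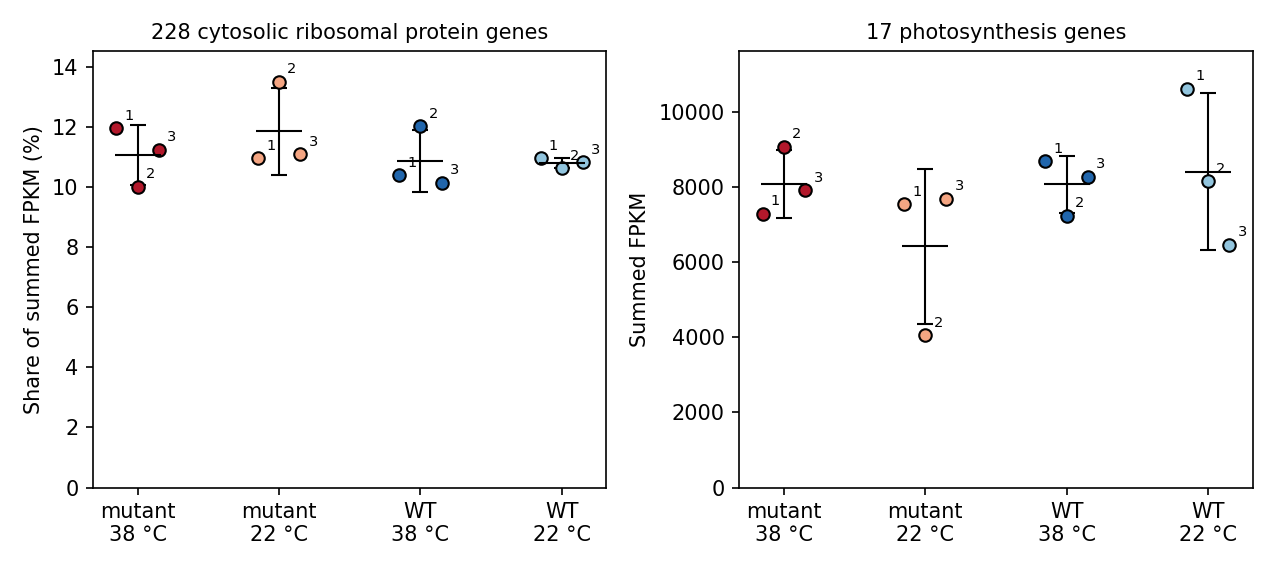
Left, share of summed FPKM (%, y axis from 0) taken by the 228 cytosolic genes, and right, summed FPKM of 17 photosynthesis genes, in each of the 12 libraries by group. Points are libraries with their replicate number, and bars are the mean and SD (n = 3). Mutant replicate 2 at 22 °C has the highest ribosomal share (13.5%) and the lowest photosynthesis sum (4047 FPKM).

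Among proteins of the large subunit, 2 of the 124 tested cytosolic genes rose and 29 fell with heat in the mutant, and 9 rose and 14 fell in the wild type. The mutant counts were 1.61% and 23.4%, beside 11.3% and 13.6% of all tested genes. Those in the wild type were 7.26% and 11.3%, beside 14.3% and 16.4%. SAC52 (AT1G14320) codes for L10, which is added late in the assembly of the large subunit. It had 668, 581 and 626 FPKM in the mutant at 38 °C, against 744, 846 and 734 FPKM in the mutant at 22 °C (-0.42, SE 0.08, adjusted p = 0.0047). Wild-type flowers had 508, 605 and 542 FPKM at 38 °C, against 754, 735 and 732 FPKM at 22 °C (-0.52, SE 0.08, adjusted p = 8.71e-04). The gene fell in both genotypes with no overlap between temperatures, and in the wild type the fall passed under every alternative. The other L10 genes did not pass: SAG24 (AT1G66580) changed by -0.22 in the mutant and -0.17 in the wild type, and RPL10B (AT1G26910), at 38.7 FPKM the weakest of the 3, by 0.14 and 0.08.

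RPL34 (AT1G69620) and AT4G14320 had the largest falls of the large subunit in the mutant. RPL34 had 553, 484 and 536 FPKM in the mutant at 38 °C, against 659, 868 and 675 FPKM in the mutant at 22 °C (-0.59, SE 0.11, adjusted p = 0.00253), and its change in the wild type was -0.40, adjusted p = 0.0151. AT4G14320, which codes for L36a, had 296, 241 and 264 FPKM in the mutant at 38 °C, against 341, 456 and 326 FPKM in the mutant at 22 °C (-0.59, SE 0.12, adjusted p = 0.00522). The wild-type change of AT4G14320 was -0.32, adjusted p = 0.0676. Both calls in the mutant held under every alternative, and for both genes the difference between genotypes did not pass (adjusted p = 0.565 for RPL34 and 0.462 for AT4G14320). AT3G06700 (L29) also fell in the mutant (-0.51, SE 0.14, adjusted p = 0.025), with 385 to 424 FPKM at 38 °C against 435 to 677 FPKM at 22 °C. Its call was lost in 9 alternatives, among them leaving out mutant replicate 2 at 22 °C and mutant replicate 2 or 3 at 38 °C. AT2G40205, a gene for the very short protein L41, fell in the wild type, with 159.5, 245 and 209 FPKM in the wild type at 38 °C, against 329, 261 and 288 FPKM in the wild type at 22 °C (-0.61, SE 0.16, adjusted p = 0.0138). The call was lost in 4 alternatives, among them leaving out wild-type replicate 1 or 3 at 22 °C or replicate 1 at 38 °C. The gene shares 41.2% of its 100-base stretches with the neighbouring gene AT2G40200, so part of its reads may belong there.

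Several of the rises in the large subunit were in genes weaker than a paralog. RPL3B (AT1G61580) codes for the second form of L3, a protein that reaches into the peptide-bond centre. It had 53.1, 59.7 and 55.1 FPKM in the wild type at 38 °C, against 43, 39.6 and 38.95 FPKM in the wild type at 22 °C (0.37, SE 0.07, adjusted p = 0.00227), and the rise passed under every alternative. RPL3A (AT1G43170), its paralog at 734 FPKM, changed by 0.06 (adjusted p = 0.62). In the mutant RPL3B had 47.9, 44.9 and 50.1 FPKM at 38 °C, against 39.1, 44.1 and 43.3 FPKM at 22 °C, a change of 0.07, adjusted p = 0.511. AT1G80750 codes for an L7-type protein with 58.6% identity in coding sequence to its closest paralog, where the other L7 genes share 78.9% to 81.3%. It had 119, 110.2 and 117 FPKM in the mutant at 38 °C, against 74.8, 99.5 and 77.8 FPKM in the mutant at 22 °C (0.35, SE 0.10, adjusted p = 0.0246), and 114, 120.2 and 105 FPKM in the wild type at 38 °C, against 76.8, 70.4 and 74.4 FPKM in the wild type at 22 °C (0.52, SE 0.10, adjusted p = 0.00233), with no overlap in either genotype. AT2G44860, the L24-type gene with 3 site II matches and a telo box above, shares 51.6% identity with its closest paralog. The other L24 genes share 85.0%. AT2G44860 and AT1G80750 are placed in their families by the deposited annotation, and whether they are parts of the ribosome was not tested. AT2G44860 had 157, 190.0 and 152 FPKM in the wild type at 38 °C, against 106, 107 and 108 FPKM in the wild type at 22 °C (0.54, SE 0.14, adjusted p = 0.0137). Without wild-type replicate 2 at 38 °C its adjusted p was 0.0552. AT4G26230, which codes for L31 and is named, after its values were seen, because its call held under every alternative, had 469, 537 and 458 FPKM in the wild type at 38 °C, against 336, 298 and 335 FPKM in the wild type at 22 °C (0.50, SE 0.10, adjusted p = 0.00312).

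Other large-subunit proteins with known developmental roles changed little. STV1 (AT3G53020) codes for an L24 that is needed to resume translation after short upstream reading frames. It had 616, 536 and 578 FPKM in the mutant at 38 °C, against 584, 786 and 625 FPKM in the mutant at 22 °C (-0.31, SE 0.10, adjusted p = 0.0499). Temperatures overlapped, and 21 of the alternatives did not keep the call. PGY1 (AT2G27530, L10a) and PGY2 (AT1G33140, L9), known for their roles in leaf patterning, changed by -0.30 and -0.01 in the mutant and by -0.09 and 0.20 in the wild type, and neither passed. The pair for L5, which carries the 5S ribosomal RNA into the subunit, did not pass either: ATL5 (AT3G25520) changed by -0.07 in the mutant and -0.15 in the wild type, and RPL5B (AT5G39740) by -0.26 and -0.17. Nor did RPL23AA (AT2G39460), RPL23AB (AT3G55280), the L4 gene AT3G09630 or the L27a gene AT1G70600, with changes between -0.22 and 0.03 in both genotypes.

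Among proteins of the small subunit, 3 of the 98 tested cytosolic genes rose and 25 fell with heat in the mutant, and 7 rose and 18 fell in the wild type. The mutant counts were 3.06% and 25.5%, beside 11.3% and 13.6% of all tested genes. Those in the wild type were 7.14% and 18.4%, beside 14.3% and 16.4%. RPS18C (AT4G09800) codes for S18, a protein of the head of the subunit, and is the gene with no telo box or site II match in the sequence above. It had 347, 308 and 328 FPKM in the mutant at 38 °C, against 424, 505 and 407 FPKM in the mutant at 22 °C (-0.55, SE 0.09, adjusted p = 0.00184). Its wild-type values were 365, 378 and 319 FPKM at 38 °C, against 429, 402 and 408 FPKM at 22 °C (-0.32, SE 0.09, adjusted p = 0.0226). The fall in the mutant held under every alternative. AT5G18380 (S16) had 825, 706 and 822 FPKM in the mutant at 38 °C, against 984, 1167 and 940.4 FPKM in the mutant at 22 °C (-0.50, SE 0.09, adjusted p = 0.00256). Its temperatures did not overlap either, although the call was lost when FPKM was tested with limma.

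In the wild type S21 and S17 each had a gene that fell under every alternative, and they are named for that, after their values were seen. AT3G53890, a gene for S21, had 288, 414 and 293 FPKM in the wild type at 38 °C, against 471, 457 and 454 FPKM in the wild type at 22 °C (-0.57, SE 0.13, adjusted p = 0.00646). AT3G10610, a gene for S17, had 67.2, 80.5 and 76.2 FPKM in the wild type at 38 °C, against 108, 100.3 and 99.5 FPKM in the wild type at 22 °C (-0.55, SE 0.11, adjusted p = 0.00237). At 38 °C both were below every library at 22 °C. RPS6A (AT4G31700) codes for S6, the protein that is phosphorylated by S6 kinase when the growth regulator TOR is active. It had 319, 342 and 308 FPKM in the wild type at 38 °C, against 375, 545 and 534 FPKM in the wild type at 22 °C (-0.68, SE 0.20, adjusted p = 0.0258). In the mutant it had 657, 359 and 400.5 FPKM at 38 °C, against 358, 418 and 376 FPKM at 22 °C (0.19, SE 0.20, adjusted p = 0.532). The fall in the wild type was lost in 8 alternatives, and the highest value, in mutant replicate 1 at 38 °C, came from a single library. The S6 paralog AT5G10360 changed by -0.16 in the mutant and 0.04 in the wild type, and neither change passed.

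The 3 genes of the small subunit that rose in the mutant were weaker genes for S9, SA and S2, and each also rose in the wild type. AT5G39850 codes for S9, a protein of the messenger RNA entry site. It had 116, 96.1 and 105 FPKM in the mutant at 38 °C, against 60.6, 74.9 and 60.3 FPKM in the mutant at 22 °C (0.59, SE 0.10, adjusted p = 0.00238). Wild-type libraries held 107, 119.9 and 97.5 FPKM at 38 °C, against 64.99, 58.3 and 62.4 FPKM at 22 °C (0.71, SE 0.10, adjusted p = 4.90e-04). Every library at 38 °C lay above every library at 22 °C in both genotypes, and both calls held under every alternative. Its paralog AT5G15200, with 88.8% of the family's FPKM, went the other way, with 679.7, 555 and 637 FPKM in the mutant at 38 °C, against 729, 834 and 679 FPKM in the mutant at 22 °C (-0.37, SE 0.09, adjusted p = 0.0156), where the temperatures overlapped, and a change in the wild type of -0.26, adjusted p = 0.0562.

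RPSAb (AT3G04770) codes for SA, which sits where messenger RNA leaves the subunit. It had 49.8, 43.7 and 41.7 FPKM in the mutant at 38 °C, against 21, 26.8 and 24.2 FPKM in the mutant at 22 °C (0.80, SE 0.14, adjusted p = 0.00195). The wild-type levels were 27.6, 37.6 and 37.2 FPKM at 38 °C, against 25.2, 20.4 and 24.7 FPKM at 22 °C (0.45, SE 0.14, adjusted p = 0.0288). The other SA gene, P40 (AT1G72370), stood at 621 FPKM and did not pass (-0.27 in the mutant and -0.16 in the wild type). AT3G57490 codes for S2 and was the weakest of 6 S2 genes. It had 71.8, 64.1 and 73.04 FPKM in the mutant at 38 °C, against 35.2, 42.5 and 41.9 FPKM in the mutant at 22 °C (0.70, SE 0.10, adjusted p = 7.02e-04), and 45.1, 58.4 and 50.5 FPKM in the wild type at 38 °C, against 41.1, 38.7 and 37.6 FPKM in the wild type at 22 °C (0.30, SE 0.10, adjusted p = 0.0389). All 3 of its libraries at 38 °C were above all 3 at 22 °C in each genotype. The rises of AT3G04770 and AT3G57490 in the mutant held under every alternative, and those in the wild type were lost in 5 and 8.

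For S5, RPS5A (AT3G11940), whose promoter is widely used to drive genes in dividing cells, had 467, 396 and 429.8 FPKM in the mutant at 38 °C, against 501, 635 and 487 FPKM in the mutant at 22 °C (-0.43, SE 0.10, adjusted p = 0.00912) and a change in the wild type of -0.22, adjusted p = 0.109. RPS5B (AT2G37270) changed by 0.22 in the mutant and 0.23 in the wild type, and neither passed. RPS13A (AT4G00100) did not pass (-0.25 in the mutant and -0.01 in the wild type). PFL (AT1G22780), another S18 gene, fell in both genotypes (-0.36, adjusted p = 0.0248 in the mutant and -0.30, adjusted p = 0.0468 in the wild type), the call in the wild type being lost in 20 alternatives. Of the 3 genes for RACK1, a scaffold protein bound to the head of the small subunit, ATARCA (AT1G18080) fell in the mutant (-0.34, adjusted p = 0.0146) and RACK1B (AT1G48630) fell in the wild type (-0.31, adjusted p = 0.0317). Over the 3 genes the changes ran from -0.34 to 0.07 in the mutant and from -0.31 to -0.18 in the wild type. The difference between genotypes passed for 0 of them.

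**Figure D3:**
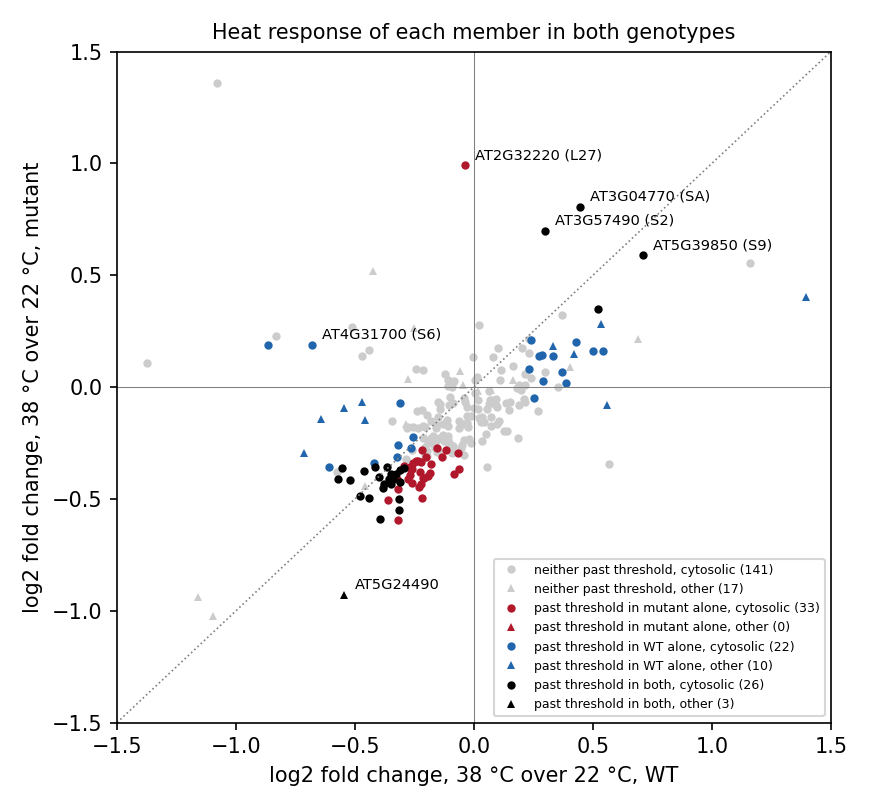
Log2 fold change of 38 °C over 22 °C in the mutant (y axis) against that in the wild type (x axis) for the 247 tested members within 1.5 of 0 on both axes, with 5 outside. Circles are cytosolic genes, triangles are other members, colours give where the change passed, and the dotted line marks equal change. Most points lie between -0.5 and 0.5, and AT2G32220 (L27) stands at 0.99 in the mutant and -0.04 in the wild type.

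Paralogs of 1 family could move in opposite directions. In the mutant 3 families held both a gene that rose and a gene that fell, L27, L7 and S9. There were 6 such families in the wild type, L13a, L7, S11, S18, S27 and S3. The split of L7 rests on AT1G80750, whose coding sequence is the least like those of the other L7 genes. In L7 the rise of AT1G80750 stood beside a fall of the main gene AT2G01250, which had 533, 431 and 498 FPKM in the mutant at 38 °C, against 554, 671 and 569 FPKM in the mutant at 22 °C (-0.40, SE 0.10, adjusted p = 0.0145). In the wild type AT2G01250 had 411, 506 and 443 FPKM at 38 °C, against 581, 545 and 554 FPKM at 22 °C (-0.40, SE 0.10, adjusted p = 0.0114). The remaining L7 genes, AT2G44120 and AT3G13580, did not pass in either genotype.

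In S3, AT5G35530 rose in the wild type with 461, 501 and 444 FPKM in the wild type at 38 °C, against 344, 322 and 341 FPKM in the wild type at 22 °C (0.39, SE 0.09, adjusted p = 0.00985), under every alternative, while AT3G53870 fell (-0.26, adjusted p = 0.0496) and AT2G31610 did not pass (-0.16). In L13a, AT3G24830 fell in both genotypes (-0.49, adjusted p = 0.00341 in the mutant and -0.44, adjusted p = 0.00438 in the wild type). AT5G48760 fell in the mutant (-0.39, adjusted p = 0.031), and AT4G13170 rose in the wild type (0.24, adjusted p = 0.0497), while AT3G07110 passed in neither. AT4G13170 shares 47.6% of its 100-base stretches with its neighbour AT4G13160.

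S11, S18 and S27 also split in the wild type, and whether a split differs between the genotypes was not tested. In S11, AT4G30800 rose (0.33, adjusted p = 0.0253) and EMB1080 (AT3G48930) fell (-0.31, adjusted p = 0.0418), and AT5G23740 did not pass (0.09). In S18, AT1G34030 rose (0.27, adjusted p = 0.0484) beside the falls of RPS18C and PFL. In S27, AT2G45710 rose (0.29, adjusted p = 0.0207) and RS27A (AT3G61110) fell (-0.35, adjusted p = 0.0277), and AT5G47930 did not pass (0.03). Several of these values lie close to the threshold, and the calls of EMB1080, PFL, AT3G53870, AT4G13170, AT1G34030 and RS27A in the wild type were each lost in 9 to 20 alternatives.

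The widest spread of fold changes within families otherwise came from genes near 0. In L18 AT2G47570 had 0.521, 0.259 and 0.205 FPKM in the wild type at 22 °C and was listed at 0 in all 3 libraries at 38 °C, with at most 14 counts in a library, so that no fold is given although it passed (adjusted p = 0.0263). RPL18 (AT3G05590) and AT5G27850, the main L18 genes, did not pass. The wide ranges of L13, L19, P1, S15a and L10a came likewise from AT3G48960, AT4G16030, AT5G24510, AT2G39590 and AT2G27535, with means between 0.381 and 2.22 FPKM and none past the threshold for heat. Other genes of these families did pass. BBC1 (AT3G49010, L13) fell in the mutant (-0.41, adjusted p = 0.0377), whereas AT5G23900 (L13) rose in the wild type (0.29, adjusted p = 0.0224), and AT4G00810 (P1, a protein of the stalk that recruits elongation factors) fell there (-0.32, adjusted p = 0.0405). AT1G08360 (L10a) fell in the mutant (-0.28, adjusted p = 0.0298). These calls depended on the processing: that of BBC1 was lost in 17 alternatives, that of AT4G00810 in 18, that of AT1G08360 in 13 and that of AT5G23900 in 3.

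**Figure D4:**
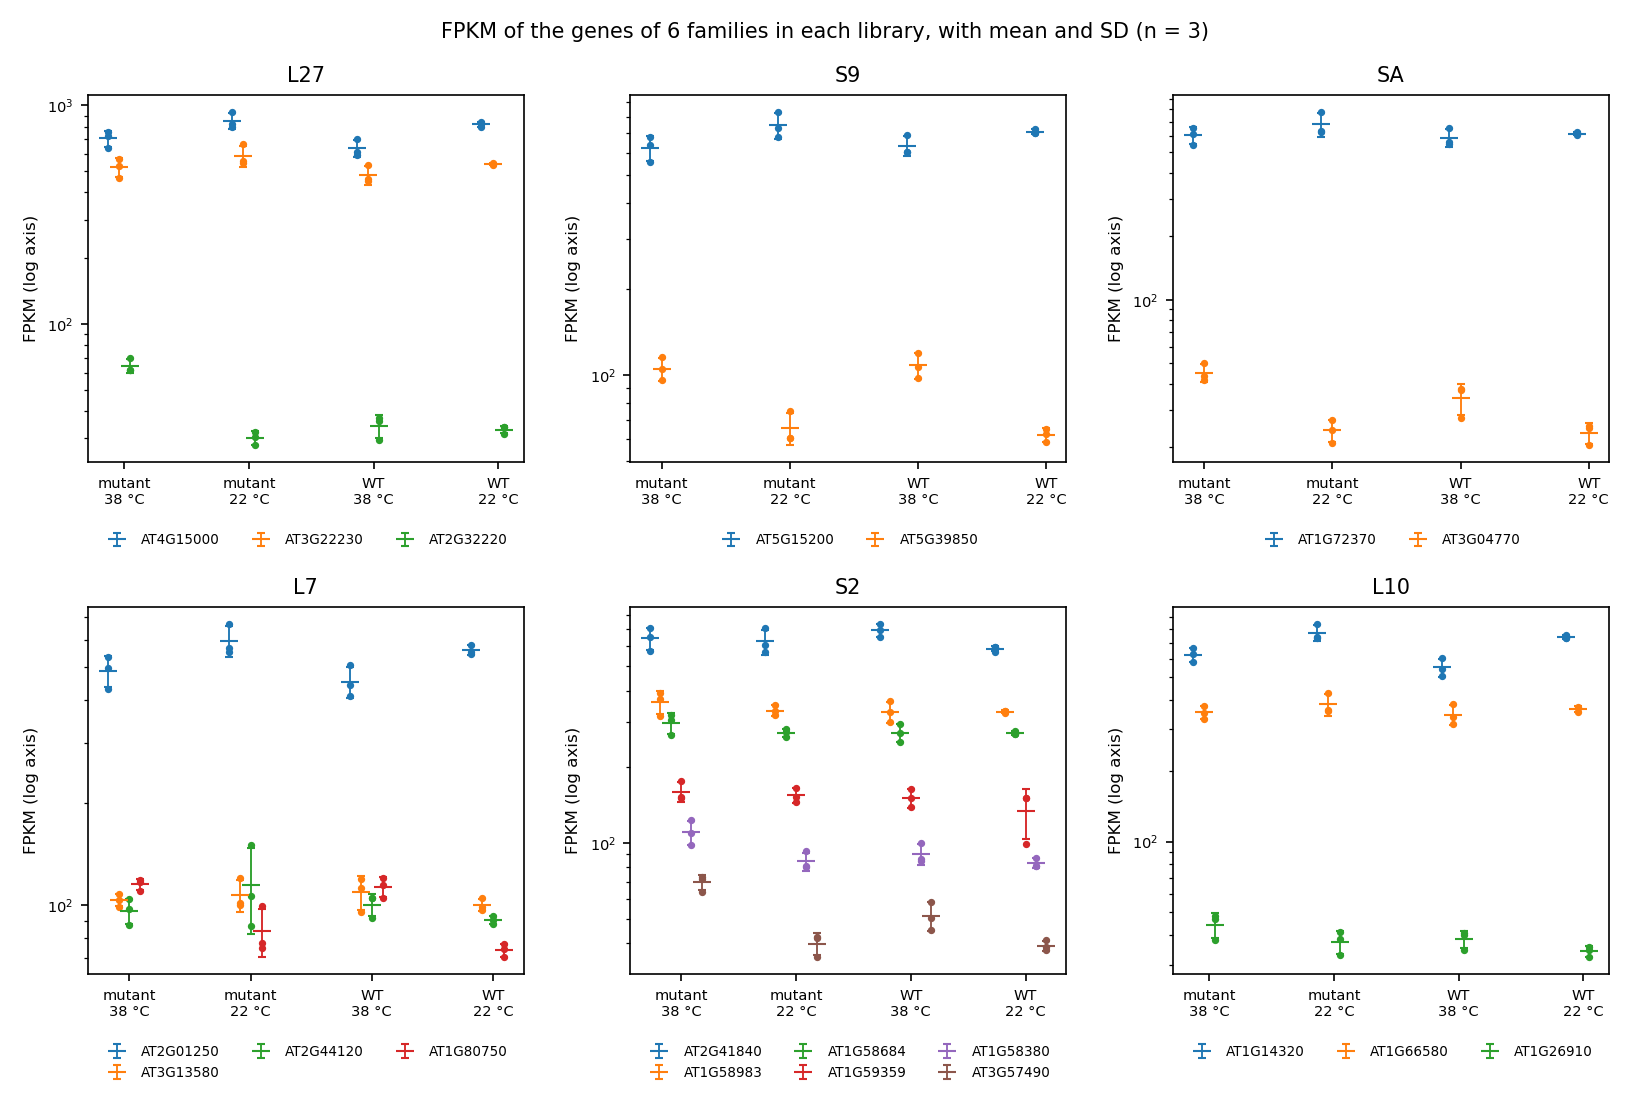
FPKM (y axis, log scale) of each gene of 6 families in the 12 libraries by group, with mean and SD (n = 3) per gene. The weaker genes AT2G32220 (L27), AT5G39850 (S9), AT3G04770 (SA), AT1G80750 (L7) and AT3G57490 (S2) are higher at 38 °C in the mutant, whereas AT4G15000 (L27), AT5G15200 (S9), AT2G01250 (L7) and AT1G14320 (L10) are lower.

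Rises and falls were unevenly spread over the levels, a pattern noticed after the values were seen and given as a description. Under 10 FPKM (13 tested) 0 rose and 0 fell in the mutant and 0 rose and 2 fell in the wild type. Among the 29 cytosolic genes with a mean between 10 and 100 FPKM, 5 rose and 2 fell in the mutant and 9 rose and 1 fell in the wild type. Among the 58 between 100 and 300 FPKM, 0 rose and 6 fell in the mutant and 5 rose and 6 fell in the wild type. Between 300 and 600 FPKM (95 genes) the counts were 0 and 33 in the mutant and 2 and 16 in the wild type. Over 600 FPKM (27 genes) they were 0 and 13 in the mutant and 0 and 7 in the wild type. Tested genes that are not members gave, in the mutant, 1482 rises and 2276 falls among the 11296 between 10 and 100 FPKM, 64 and 252 among the 824 between 100 and 300 FPKM, 15 and 26 among the 125 between 300 and 600 FPKM, and 4 and 14 among the 59 over 600 FPKM. The same genes in the wild type gave 2070 and 2519, 100 and 266, 18 and 31, and 8 and 10. Over the 4 classes from 10 FPKM up, falls made up 6.90%, 10.3%, 34.7% and 48.1% of the cytosolic genes in the mutant. Among the other genes these shares were 20.1%, 30.6%, 20.8% and 23.7%. In the wild type they were 3.45%, 10.3%, 16.8% and 25.9% of the cytosolic genes, beside 22.3%, 32.3%, 24.8% and 16.9%. The cytosolic share was thus lower in some classes and higher in others, and no difference was tested. Without mutant replicate 2 at 22 °C, chosen after the data were seen, the cytosolic counts in the mutant were 8 and 0 between 10 and 100 FPKM, 0 and 0 between 100 and 300 FPKM, 0 and 6 between 300 and 600 FPKM, and 0 and 3 over 600 FPKM. Without wild-type replicate 2 at 38 °C the wild-type counts were 3 and 2, 0 and 10, 2 and 24, and 0 and 12. In 75 families at least 2 genes had a mean of 10 FPKM or more, and in 55 of them the weakest of these had a higher log2 fold change than the strongest in the mutant, and in 51 in the wild type. Over all alternatives these numbers ran from 53 to 58 in the mutant and from 45 to 51 in the wild type. A change of scaling moves both genes of a family alike and could not move these numbers. With all 12 libraries kept, every alternative gave 55 and 51. Tested genes that are not members also had lower medians above 100 FPKM than from 10 to 100 FPKM. Over the 4 classes from 10 FPKM up, these were -0.05, -0.19, -0.17 and -0.35 in the mutant. In the wild type they were -0.05, -0.24, -0.28 and -0.37. Family sums gave the total over paralogs. The sum of mean FPKM was lower at 38 °C in 70 of 79 families in the mutant, with a median ratio of 0.915, and in 48 of 79 in the wild type, with a median ratio of 0.985. Leaving out single libraries, an alternative chosen after the data were seen, moved these sums. Without mutant replicate 2 at 22 °C, the library with the highest ribosomal share, the sum was lower in 42 of 79 families in the mutant, with a median ratio of 0.988. Without any one of the other mutant libraries it was lower in 57 to 73. Wild-type sums were lower in between 36 families, without replicate 3 at 38 °C, and 62, without replicate 2 at 38 °C, with median ratios of 1.01 and 0.936.

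**Figure D5:**
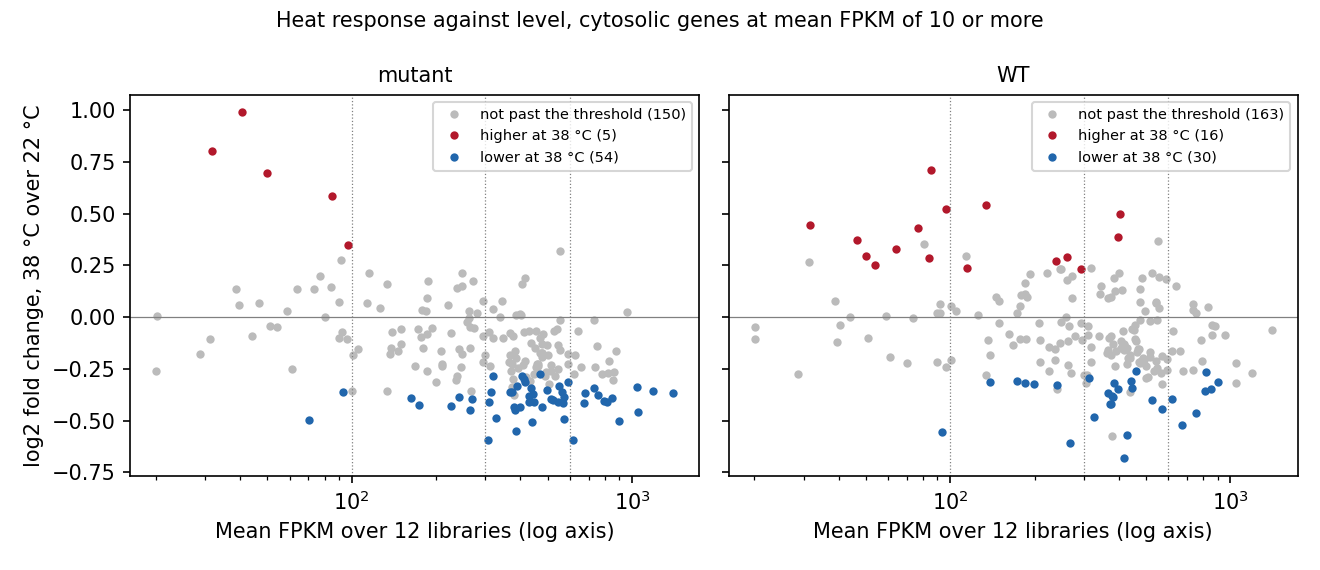
Log2 fold change of 38 °C over 22 °C (y axis) against mean FPKM over the 12 libraries (x axis, log scale) for the cytosolic genes at 10 FPKM or more, in the mutant (left) and the wild type (right). Red points rose, blue points fell, grey points did not pass, and dotted lines mark 100, 300 and 600 FPKM. The 5 genes that rose in the mutant all lie under 100 FPKM.

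The genotypes were then compared at each temperature. At 22 °C 0 members passed in either direction by edgeR, by DESeq2 or by any other setting tried, where 0.161% of all genes were higher and 0.0297% lower in the mutant. At an unadjusted p below 0.05 there were 6 members, a count not made for all genes. The median log2 fold change of the members, mutant over wild type, was 0.10, against -0.01 for all genes. In this comparison the mutant group contains the library that was the highest of its group for 200 of the 222 tested cytosolic genes.

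At 38 °C 4 members were higher and 3 lower in the mutant than in the wild type, 1.59% and 1.19% of those tested, where 4.36% of all genes were higher and 5.26% lower. Their median was 0.02, against -0.00 for all genes. Leaving out 1 library gave 1 to 8 higher and 1 to 3 lower: 8 were higher without wild-type replicate 2 at 38 °C, 1 without wild-type replicate 1 or 3 or mutant replicate 3, and 2 without mutant replicate 1 or 2, all at 38 °C. AT2G32220 (L27), described below, stood out. AT5G59240, the weak gene for S8, had 4.105, 5.64 and 7.83 FPKM in the mutant at 38 °C, against 2.55, 3.42 and 1.83 FPKM in the wild type at 38 °C (1.13, SE 0.28, adjusted p = 0.0273), a call lost in 6 alternatives. AT3G57490 (S2) had 71.8, 64.1 and 73.04 FPKM in the mutant at 38 °C, against 45.1, 58.4 and 50.5 FPKM in the wild type at 38 °C (0.40, SE 0.10, adjusted p = 0.026). RACK1C (AT3G18130) had 111, 96.4 and 101 FPKM in the mutant at 38 °C, against 72.5, 85.8 and 80.7 FPKM in the wild type at 38 °C (0.32, SE 0.08, adjusted p = 0.0319). None of these 3 overlapped between the genotypes, and the last 2 calls were lost in 5 and 8 alternatives.

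Lower in the mutant at 38 °C were RPL3B, AT5G63190 and AT2G07725. RPL3B had 47.9, 44.9 and 50.1 FPKM in the mutant at 38 °C, against 53.1, 59.7 and 55.1 FPKM in the wild type at 38 °C (-0.27, SE 0.07, adjusted p = 0.0302), and the call was lost in 14 alternatives. AT5G63190 codes for a protein with MA3 domains, which is no ribosomal protein, and had 21.1, 20.8 and 26.6 FPKM in the mutant at 38 °C, against 36.5, 29.6 and 36.1 FPKM in the wild type at 38 °C (-0.62, SE 0.12, adjusted p = 0.00776), under every alternative. It also rose with heat in the wild type (0.56, adjusted p = 0.00448) and not in the mutant (-0.08), and the difference between these responses did not pass (adjusted p = 0.0857). It shares 51.3% of its 100-base stretches with AT5G63195, an antisense gene, so the source of its reads is uncertain.

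Subtracting the wild-type heat response from that of the mutant left 1 of 252 members past the threshold, which was higher, where 0.407% of all genes were higher and 1.18% lower. At an unadjusted p below 0.05 there were 15 members, a count not made for all genes. DESeq2 called 2 members higher and 3 lower, where it called 647 of all 23585 genes higher and 1195 lower. The 1 member past the threshold by edgeR was AT2G32220, a gene for L27 (chromosome 2, positions 13678919 to 13679523, plus strand, TAIR10). It had 61.6, 61.7 and 70.3 FPKM in the mutant at 38 °C, against 30.3, 27.9 and 32.2 FPKM in the mutant at 22 °C. In the wild type it had 29.5, 35.97 and 37.2 FPKM at 38 °C, against 33.7, 33.6 and 31.4 FPKM at 22 °C. The 3 libraries of the mutant at 38 °C thus lay far above the other 9, which fell between 27.9 and 37.2 FPKM.

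In the mutant AT2G32220 rose with heat (0.99, SE 0.10, adjusted p = 1.23e-04), whereas in the wild type it did not pass (-0.04, SE 0.10, adjusted p = 0.813). Between genotypes it was higher in the mutant at 38 °C (0.87, SE 0.10, adjusted p = 5.30e-04) and did not pass at 22 °C (-0.16, SE 0.10, adjusted p = 0.778). The difference of the responses was 1.03, SE 0.14, adjusted p = 0.00936. That call held without each single library. Its adjusted p was 0.0670, with a value of 1.02, when the 3 libraries named with the ribosomal share were left out together. RACK1C, RPL3B and AT3G57490, which passed between genotypes at 38 °C, did not pass for this difference (adjusted p = 0.253 for RACK1C, 0.162 for RPL3B and 0.184 for AT3G57490).

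The other L27 genes are the ones whose upstream sequences are shown above, with means over the 12 libraries of 754 FPKM for AT4G15000 and 533 FPKM for AT3G22230, against 40.5 FPKM for AT2G32220. AT4G15000 had 755, 641 and 729 FPKM in the mutant at 38 °C, against 797, 937 and 826 FPKM in the mutant at 22 °C (-0.37, SE 0.09, adjusted p = 0.0109). Wild-type levels of this gene were 597, 702 and 611 FPKM at 38 °C, against 839.9, 793 and 826 FPKM at 22 °C (-0.46, SE 0.09, adjusted p = 0.00253). AT3G22230 had 567, 465 and 531 FPKM in the mutant at 38 °C, against 546, 664 and 556 FPKM in the mutant at 22 °C (-0.28, SE 0.10, adjusted p = 0.0544), and its change in the wild type was -0.26, adjusted p = 0.0633. AT4G15000 fell in both genotypes with no overlap between temperatures, AT3G22230 overlapped and passed in neither, and for neither gene did the difference between genotypes pass. The 2 main genes share 88.7% of their coding sequence with each other, and AT2G32220 has 78.0% identity with its closest paralog. Its transcript had no 100-base stretch in common with another gene, and its promoter window held neither a telo box nor a site II motif.

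Neighbours of AT2G32220 were looked up after its values were seen. PRORP1 (AT2G32230), a gene for an RNase P enzyme of organelles, lies just beyond its end on the opposite strand. PRORP1 had 33.2, 37.2 and 32.9 FPKM in the mutant at 38 °C, against 22.4, 21.4 and 27.4 FPKM in the mutant at 22 °C, and rose with heat there (0.43, adjusted p = 0.0166). Its difference between genotypes did not pass (0.57, adjusted p = 0.102). AT2G32210, a gene on the same strand that ends inside the promoter window, had 3.27, 3.198 and 2.56 FPKM in the mutant at 38 °C, against 0.848, 1.03 and 1.49 FPKM in the mutant at 22 °C, and did not pass (adjusted p = 0.0962). Its wild-type levels were 1.401, 2.38 and 0.531 FPKM at 38 °C, against 0.603, 0.323 and 0.657 FPKM at 22 °C (adjusted p = 0.0916), and its difference between genotypes did not pass (adjusted p = 1). The sources used here do not say whether the counting used the strand, and the part of these neighbours in the result was not tested.

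A further 31 members are no cytosolic ribosomal protein genes. Of 21 tested genes for bacterial-type proteins of the organelles, 2 rose and 1 fell with heat in the mutant, and 4 rose and 6 fell in the wild type. As shares these were 9.52% and 4.76% in the mutant, beside 11.3% and 13.6% of all tested genes. Wild-type shares were 19.05% and 28.57%, beside 14.3% and 16.4%. No difference from all genes was tested. AT5G24490, annotated as a putative 30S protein, had 45.3, 61.4 and 55.9 FPKM in the mutant at 38 °C, against 108, 89.7 and 91.1 FPKM in the mutant at 22 °C (-0.93, SE 0.14, adjusted p = 0.00111), and its change in the wild type was -0.54, adjusted p = 0.0134. The mitochondrial L5 gene ATMG00210 had 13.7, 6.33 and 7.15 FPKM in the mutant at 38 °C, against 1.39, 3.07 and 0.951 FPKM in the mutant at 22 °C (2.22, SE 0.41, adjusted p = 0.00309), and 14.6, 15.3 and 11.5 FPKM in the wild type at 38 °C, against 1.96, 1.59 and 1.89 FPKM in the wild type at 22 °C (2.82, SE 0.42, adjusted p = 5.22e-04). AT2G07725, an L5 gene on chromosome 2, rose in both genotypes (1.28, adjusted p = 0.0456 in the mutant and 2.93, adjusted p = 5.36e-04 in the wild type), the call in the mutant being lost in 11 alternatives. It was lower in the mutant at 38 °C (-1.77, adjusted p = 0.02). It shares 73.9% of its 100-base stretches with the mitochondrial L5 gene and an overlapping gene, so the source of its reads is uncertain.

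Of the plastid proteins coded in the nucleus, emb1473 (AT1G78630, L13) fell in the wild type under every alternative, with 121, 118 and 124 FPKM in the wild type at 38 °C, against 218, 188 and 152 FPKM in the wild type at 22 °C (-0.71, SE 0.14, adjusted p = 0.00308). AT3G18880, a bacterial-type S17 gene, fell there too (-0.64, adjusted p = 0.0125), and neither passed in the mutant. Among the 5 members with other functions AT5G15750, an RNA-binding protein of the S4 type, rose in the wild type with 56.4, 64.2 and 48.9 FPKM in the wild type at 38 °C, against 35.1, 35.8 and 38.7 FPKM in the wild type at 22 °C (0.53, SE 0.11, adjusted p = 0.0046). The 4 ribosomal RNA genes did not pass in any comparison and varied between replicates, with 966, 4772 and 1705 FPKM for AT3G41768 in the wild type at 22 °C.

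Genes that act with the ribosome were compared in lists drawn from textbook knowledge. Of all genes tested, 11.3% rose and 13.6% fell with heat in the mutant, and 14.3% and 16.4% did so in the wild type. Of 23 translation initiation factors, 3 rose and 2 fell with heat in each genotype. eIF5A3 (AT1G69410), a factor that helps the ribosome through difficult stretches, had 92.7, 99.6 and 92.5 FPKM in the mutant at 38 °C, against 48.5, 42.8 and 48.6 FPKM in the mutant at 22 °C (0.92, adjusted p = 3.24e-05), and 94.4, 98.5 and 97.5 FPKM in the wild type at 38 °C, against 46.9, 47.9 and 46.3 FPKM in the wild type at 22 °C (0.95, adjusted p = 9.08e-06). eIFiso4G2 (AT2G24050), a scaffold of the cap-binding complex, rose by 0.82, adjusted p = 1.04e-04 in the mutant and by 0.30, adjusted p = 0.0155 in the wild type, and the difference passed (0.52, adjusted p = 0.0483). Of 5 elongation factor genes 0 rose and 2 fell in each genotype, with LOS1 (AT1G56070, elongation factor 2) at -0.23, adjusted p = 0.0355 in the wild type.

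Of 12 genes of the TOR pathway and of ribosomal gene regulation, 2 rose and 2 fell in the mutant and 3 rose and 2 fell in the wild type. S6K2 (AT3G08720), a kinase of S6, rose in the mutant (0.65, adjusted p = 0.00829), and S6K1 (AT3G08730) fell in the wild type (-0.65, adjusted p = 0.0418). RAPTOR1A (AT5G01770), a partner of TOR, rose in the wild type (0.73, adjusted p = 7.36e-04) and did not pass in the mutant (0.33, adjusted p = 0.0555). TCP20 (AT3G27010), a transcription factor that is known to bind site II motifs, rose in the wild type (0.43, adjusted p = 0.0316). NUC1 (AT1G48920), a nucleolin of ribosome production, rose in the mutant (0.29, adjusted p = 0.0309). The difference between genotypes passed for 0 of these 12 genes, with values from -0.41 to 0.38. In the same flowers 8 of 11 genes of dividing cells fell and 1 rose in the mutant, and 10 fell and 0 rose in the wild type, with medians of -0.58 and -0.85, against -0.17 and -0.12 for the ribosomal members.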

How the data were processed

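RNA from 12 flower libraries was analysed from 1 deposited table of 27715 genes. The authors deposited FPKM values, scaled to length and library, and estimated counts, given as whole numbers, which were used as such. Low counts pile up at multiples of 4 (47.3% of counts from 1 to 20, where 25% would be even), so the fragments behind a count are not known and no counting interval is given. The submitters' processing notes name StringTie 1.3.4d, HISAT2 2.0.4 and cutadapt 1.9, and TAIR10 as the build, and per the labels' protocols the kit keeps the strand. The step to counts and its strand setting are not given in the sources used here.

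The tests used edgeR 4.0.16 under R 4.3.3: trimmed mean scaling, filterByExpr with a minimum count of 10 (23585 genes kept), group means over all 12 libraries (8 residual degrees of freedom), quasi-likelihood tests, two-sided, with Benjamini-Hochberg adjustment over all tested genes and a threshold of 0.05. The 5 comparisons were heat in each genotype, genotype at each temperature and the difference of the heat responses. The fit was tested on simulated data. The members and lists were chosen with earlier results of these data known.

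Genes were named by rule: 21 chosen members, up to 6 largest rises and 6 largest falls per comparison among those past the threshold without overlap between groups, the 5 highest and 5 lowest levels, families that split or had the 6 widest ranges of heat response in a genotype, and list genes. Genes outside it are marked. Protein families came from the deposited orthology terms and descriptions. Symbols, transcripts and genome sequence were from RefSeq TAIR10.1, which matched 253 members, and positions are the table's (TAIR10). Of 27438 nuclear genes 26109 overlapped the RefSeq gene of the same locus tag. Protein sequences were not used here. Alternatives were DESeq2 1.42.0, its size factors, other scalings, no low-count filter, counts divided by 4, limma 3.58.1 on log2 FPKM with a pseudocount of 1 or 0.1 and a minimum mean of 0.1, only the groups compared, a replicate block, 3 libraries left out together and each library left out.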

Additional observations from a re-analysis of the deposited data

Results flagged for a closer look

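One result was flagged, because the heat responses of the genotypes differed by a direct test. AT2G32220, a gene for L27, had a log2 difference of 1.03, mutant minus wild type (edgeR, adjusted p = 0.00936). Its level was 64.5 ± 4.99 FPKM in the mutant at 38 °C, against 30.1 ± 2.17 FPKM in the mutant at 22 °C (SD, n = 3 each). In the wild type it was 34.3 ± 4.13 FPKM at 38 °C, against 32.9 ± 1.33 FPKM at 22 °C. With 3 libraries per group, outlying libraries were not tested for.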

How the results depend on the processing

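The counts of members past the threshold depended on the processing, and the cause was not tested. For heat in the mutant, 55 members fell and 7 rose. DESeq2 gave 11 rises, scaling on reference genes 26 rises and 13 falls, limma on log2(FPKM + 1) 12 and 6, limma on log2(FPKM + 0.1) 12 and 6, and limma without a filter 4 falls. Fitting only the groups compared gave 12 falls. Leaving out the 3 libraries named with the ribosomal share, chosen after the data were seen, gave 29. For heat in the wild type, 38 members fell and 23 rose. DESeq2 gave 36 rises, its size factors 22 falls, scaling without the members 25 falls, scaling on reference genes 42 rises and 17 falls. Limma gave 10 falls on log2(FPKM + 1), 13 on log2(FPKM + 0.1) and 7 without a filter. Fitting only the groups compared gave 18 falls, and without the 3 libraries there were 67. For genotype at 38 °C, 4 were higher, or 1 with only the groups compared and 2 with the replicate block. For the difference of responses, DESeq2 called 2 higher (AT2G32220 and AT4G31700) and 3 lower (AT1G61580, AT2G07725 and AT5G63190). Over all 23585 genes it called 647 higher and 1195 lower. By edgeR 0 members were higher without the 3 libraries.

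With each library left out in turn, falls in the mutant ran from 11 to 58 and rises from 5 to 11. Falls in the wild type ran from 12 to 52 and rises from 10 to 34. At 38 °C between 1 and 8 members were higher in the mutant and between 1 and 3 lower. The difference of responses kept 1 higher and 0 lower, and genotype at 22 °C kept 0 in both directions. Of 73 calls of named members, 21 passed under every alternative and 28 without each single library, and 0 changed direction.

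The replicate numbers were not shown to pair the libraries: correlations of deviations between libraries with the same number ran from -0.28 to 0.27, and 4 of 12 libraries correlated best with their own number. With the replicate block 7 members rose and 38 fell in the mutant, and 17 rose and 27 fell in the wild type. Of 10 reference genes, 1 had a count of 0 and was not used in scaling. Shares of counts in place of FPKM were lower, with means of 7.07%, 7.90%, 6.91% and 7.34% in the mutant at 38 °C, the mutant at 22 °C, the wild type at 38 °C and the wild type at 22 °C, against 11.7%, 12.7%, 11.5% and 11.7% of FPKM for all members.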

Other observations

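Ribosomes of the organelles have their own gene lists, taken from the deposited annotation without the members. Of 51 tested genes with mitochondrial ribosome terms, 7 rose and 3 fell with heat in the mutant, and 13 rose and 7 fell in the wild type. Of 27 tested genes with plastid ribosome terms, 2 rose and 0 fell in the mutant, and 1 rose and 1 fell in the wild type. Over all tested genes, 11.3% rose and 13.6% fell in the mutant, and 14.3% and 16.4% did so in the wild type.

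Proteins that bind or degrade messenger RNA under stress were listed too. Of 16 such genes 2 rose and 1 fell in the mutant, and 5 rose and 2 fell in the wild type. The mutant counts were 12.5% and 6.25%, beside 11.3% and 13.6% of all tested genes. Those in the wild type were 31.25% and 12.5%, beside 14.3% and 16.4%. LARP1C (AT4G35890), of a family known to bind ribosomal protein messenger RNA in mammals, had 73.3, 66.7 and 72.3 FPKM in the mutant at 38 °C, against 52.2, 52.5 and 52.5 FPKM in the mutant at 22 °C (0.33, adjusted p = 0.00568). In the wild type it had 60.6, 70.4 and 67.4 FPKM at 38 °C, against 48.5, 47.3 and 47.6 FPKM at 22 °C (0.37, adjusted p = 0.00185). LARP1B (AT5G66100) rose in the wild type (0.68, adjusted p = 2.82e-04) and did not pass in the mutant (0.20, adjusted p = 0.135), and the difference did not pass (adjusted p = 0.0921). HSP101 (AT1G74310), a chaperone that dissolves aggregates and is known to release stored ribosomal protein messenger RNA after heat, rose less in the mutant (1.36) than in the wild type (2.44), with a difference of -1.09, adjusted p = 0.0172.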
